A study of Mus musculus with 18 samples.

Results

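Polyadenylated RNA was sequenced from mouse embryonic stem (ES) cells of the 129S6/SvEvTac strain. The libraries described here are the later knockout and wild-type libraries, replicates 3, 4 and 5 of the Snf2h ko (n = 3) and replicates 6, 7 and 8 of wild type (n = 3), 6 of the 18 RNA libraries of the study. They were taken by column name, as a set in which each library held under 20 M counts. All cells were kept in medium with serum and leukemia inhibitory factor (LIF). Wild-type cells grew on gelatin, whereas the Snf2h ko line spent its first passages after thawing, or longer, on feeder cells (mouse embryonic fibroblasts), so that growth on feeders and genotype cannot be told apart. The labels name 1 knockout line and leave unsaid whether its libraries are separate cultures, so p-values refer to the spread among these 6 samples, which may be technical. Other libraries serve only for comparison. They are an earlier set of 2 ko and 2 wild-type libraries, 3 libraries of ko cells with wild-type Snf2h added back and 2 of ko cells with Snf2h mutated in its ATPase.

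Snf2h, encoded by Smarca5, is an ATPase of the ISWI family of chromatin remodellers. With partner subunits such as Baz1a and Rsf1 it slides nucleosomes along DNA and sets their spacing. Spaced arrays are known to flank the binding sites of factors such as the insulator protein CTCF. ES cells can be kept without Snf2h, which allows the comparison of its presence and absence in cells that still divide.

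The ko libraries held 17.3, 18.5 and 16.9 M counts, and the wild-type libraries held 18.99, 16.8 and 17.7 M counts. Within a group the chi-square between replicates was 1.45 to 2.09 for each gene compared, so that no pair agreed within counting noise. The first principal component held 90.1% of the variance and separated the genotypes. The cells carried the RNA of pluripotent cells in both genotypes: Pou5f1, the master regulator of pluripotency, was at 1724, 1716 and 1817 CPM (counts per M counts of the library) in ko and 1637, 1744 and 1724 CPM in wild type.

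Smarca5 (Entrez 93762, chromosome 8, 80699943 to 80739459, GRCm38) was at 10.1, 9.695 and 8.75 CPM in the ko libraries, against 213, 199 and 194 CPM in the wild-type libraries. Its RNA was thus far lower in every ko library, and the groups lay well apart. The log2 fold change was −4.40 ± 0.055 (SE), with an adjusted p of 3.37e-52 (edgeR quasi-likelihood test, Benjamini-Hochberg adjustment over all genes tested). Each SE given here is the size of the log2 fold change over the square root of the F statistic of its test. Where a group has few counts, this SE can be smaller than counting error alone. A transcribed pseudogene, Smarca5-ps, followed it at −3.82 ± 0.0777, and reads of these near-identical sequences may have been split between them. Smarca1, which encodes the other ISWI ATPase, was at 18.9, 20.3 and 20.2 CPM in ko and 23.3, 23.2 and 20.8 CPM in wild type. The ko libraries lay just below the wild-type libraries (−0.18 ± 0.0684, adjusted p = 0.0164). That call did not hold without ko replicate 3 (−0.15) or without wild type replicate 6 (−0.15) or 7 (−0.16).

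The knockout changed most genes by a small amount and a minority by a large one. Of 13946 genes tested, 10453 were called at an adjusted p under 0.05 (75.0%), of which 5275 were higher in ko (37.8%) and 5178 lower (37.1%). Counts of called genes in the lists below stand against these shares, and no list was tested as a set. The median size of a called change was 0.45 on the log2 scale, and 61% of the called genes changed by under 1.5-fold. In all, 2079 genes were called and changed at least 2-fold (14.9%), 1205 of them higher in ko (8.64%) and 874 lower (6.27%). At least 4-fold changes were found for 265 genes higher in ko and 297 lower. Large changes lay among genes of low expression, with at least 2-fold calls for 38.2% of genes in the lowest and 2.52% in the highest of 4 equal bins of mean CPM. The ko and wild-type libraries did not overlap for 75.8% of genes. The balance of directions rests on the scaling, since dividing by library totals alone moved the median of all genes by 0.06 and the share of calls that were higher to 56.7%, against 50.5%.

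**Figure D1:**
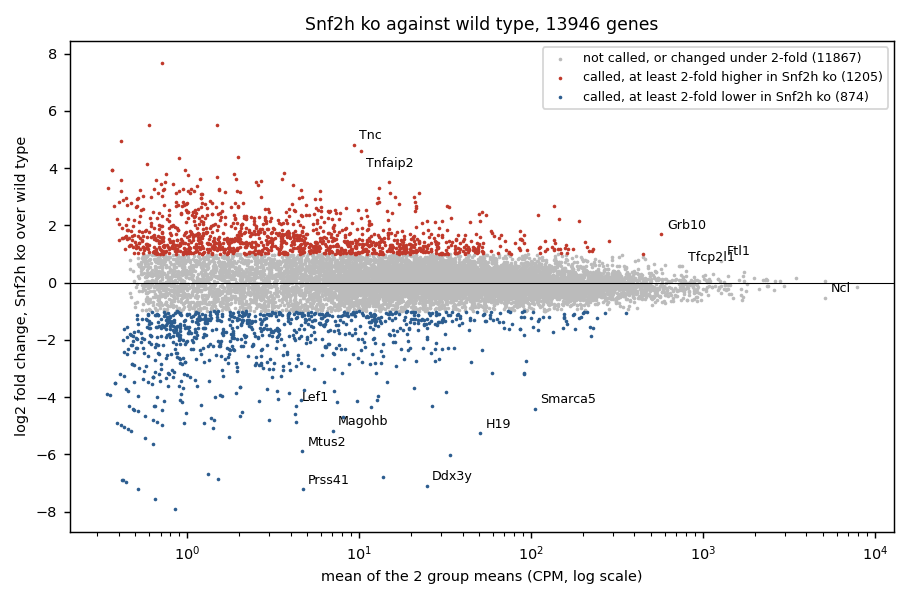
Each point is 1 of 13946 genes, with the mean of the Snf2h ko and wild-type group means in CPM on a log scale on the horizontal axis and the log2 fold change, ko over wild type, on the vertical axis. Red points are the 1205 genes called and at least 2-fold higher in ko, blue points the 874 at least 2-fold lower, and the spread of fold changes narrows as expression rises.

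The largest falls were taken among genes that averaged 5 CPM or more in at least 1 group and did not overlap between groups. Provisional symbols were left out (the naming rule), and H19 and the Y chromosome genes that met these limits are described further on. Of the genes described here, ko cells held little or almost no RNA. Genes at lower levels also fell steeply, as D5Ertd605e did with 1 count in ko and 157 in wild type. Prss41, which encodes a serine protease, had 3 counts over the ko libraries and 490 over the wild-type libraries, or 0.0565, 0 and 0.117 CPM against 8.96, 9.14 and 9.93 CPM. Its ratio of wild type over ko was 167, with an exact interval for counting error of 56.9 to 814. Mtus2, which encodes a microtubule-associated protein, was at 0.17, 0.106 and 0.175 CPM in ko and 8.80, 9.32 and 9.41 CPM in wild type (−5.88 ± 0.237, adjusted p = 8.98e-29). Magohb, one of the pair of genes for the Mago subunit of the exon junction complex, was at 0.396, 0.318 and 0.408 CPM in ko and 12.7, 14.4 and 13.9 CPM in wild type (−5.17 ± 0.179, adjusted p = 9.98e-32). For each of these genes the ko libraries were close to 0 and no library of one group came near the other. Lef1, a transcription factor of the Wnt pathway, was at 0.283, 0.583 and 0.35 CPM in ko and 9.45, 8.48 and 6.71 CPM in wild type (−4.31 ± 0.217). Atxn1l, a partner of the transcriptional repressor Capicua, was at 2.20, 3.18 and 2.16 CPM in ko and 48.6, 51.2 and 51.5 CPM in wild type (−4.31 ± 0.092). Other falls of this size were those of the carbohydrate kinase gene Fggy (−4.78), Rbm44 (−4.58), the bicarbonate transporter gene Slc4a5 (−4.33), Gpat2 (−4.15) and Plac8 (−4.13).

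The ratio of the add-back lines to ko shows how the same genes stood when Snf2h was returned in part. Smarca5 averaged 85.7 CPM in the wild-type add-back and 58.2 CPM in the mutant add-back, against 9.52 CPM in ko and 202 CPM in wild type. Both comparisons with ko use its 3 libraries and so are not independent of the values above. They called 64.9% of genes for the wild-type add-back and 25.4% for the mutant add-back, which had only 2 libraries. The wild-type add-back was grown on gelatin, whereas the mutant add-back, like ko, was started on feeders. Growth on feeders, the form of Snf2h and the level of its RNA thus cannot be told apart in these values. Prss41 averaged 10.8 CPM in the wild-type add-back (9.21 to 12.0), 0.0571 CPM in the mutant add-back and 0.0577 CPM in ko. Magohb averaged 14.4 CPM in the wild-type add-back (12.7 to 16.3), 0.257 CPM in the mutant add-back and 0.374 CPM in ko. Mtus2 averaged 6.55 CPM in the wild-type add-back (6.05 to 6.87), 0.284 CPM in the mutant add-back and 0.15 CPM in ko. Each of these genes was called higher than ko in the wild-type add-back (adjusted p = 3.37e-13, 6.85e-14 and 7.59e-13 in the order given) and was not called in the mutant add-back (adjusted p = 0.989, 0.527 and 0.304). Lef1 stood at 15.9 CPM in the wild-type add-back, 0.313 CPM in the mutant add-back and 0.405 CPM in ko, and Atxn1l at 49.8, 2.10 and 2.51 CPM in the same order.

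Upstream sequence is shown for the 3 genes just described in the add-backs as near 0 in ko and higher in the wild-type add-back, and for Tnc, the gene with the largest rise under the naming rule. The choice was made after their values were seen. Each run is the 250 bases before a RefSeq transcript start on GRCm38.p6, written 5′ to 3′ on the strand of the gene, with CpG dinucleotides, the sites of DNA methylation, in capitals.
Prss41 (chr17:23844157-23844406, minus strand): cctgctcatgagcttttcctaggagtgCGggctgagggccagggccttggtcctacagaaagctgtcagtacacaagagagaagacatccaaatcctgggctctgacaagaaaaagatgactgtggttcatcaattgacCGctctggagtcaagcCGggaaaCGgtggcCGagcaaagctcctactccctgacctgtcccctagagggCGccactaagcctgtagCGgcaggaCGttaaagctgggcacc
Magohb (chr6:131293245-131293494, minus strand): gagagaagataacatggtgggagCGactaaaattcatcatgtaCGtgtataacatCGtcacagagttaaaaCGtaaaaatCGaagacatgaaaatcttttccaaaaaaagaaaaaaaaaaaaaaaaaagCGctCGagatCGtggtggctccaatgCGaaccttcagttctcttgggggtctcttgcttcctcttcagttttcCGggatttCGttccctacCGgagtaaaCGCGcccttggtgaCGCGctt
Mtus2 (chr5:147957070-147957319, plus strand): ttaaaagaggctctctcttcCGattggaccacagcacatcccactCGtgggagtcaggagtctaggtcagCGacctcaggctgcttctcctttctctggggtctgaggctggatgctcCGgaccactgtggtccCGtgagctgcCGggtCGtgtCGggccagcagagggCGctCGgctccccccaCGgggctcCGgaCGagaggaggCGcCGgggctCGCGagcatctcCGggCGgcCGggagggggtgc
Tnc (chr4:64047016-64047265, minus strand): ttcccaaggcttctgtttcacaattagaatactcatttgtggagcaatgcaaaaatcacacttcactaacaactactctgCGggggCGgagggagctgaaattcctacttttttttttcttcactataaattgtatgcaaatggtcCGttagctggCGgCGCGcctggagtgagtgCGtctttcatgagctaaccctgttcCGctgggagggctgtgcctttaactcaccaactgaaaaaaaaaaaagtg
Prss41 had 8 CpG in this window, Magohb 16, Mtus2 20 and Tnc 8. Over the 27025 genes with a listed start the median was 6, and 56.6% of them had fewer than Prss41 or Tnc, 74.4% fewer than Magohb and 82.3% fewer than Mtus2.

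**Figure D2:**
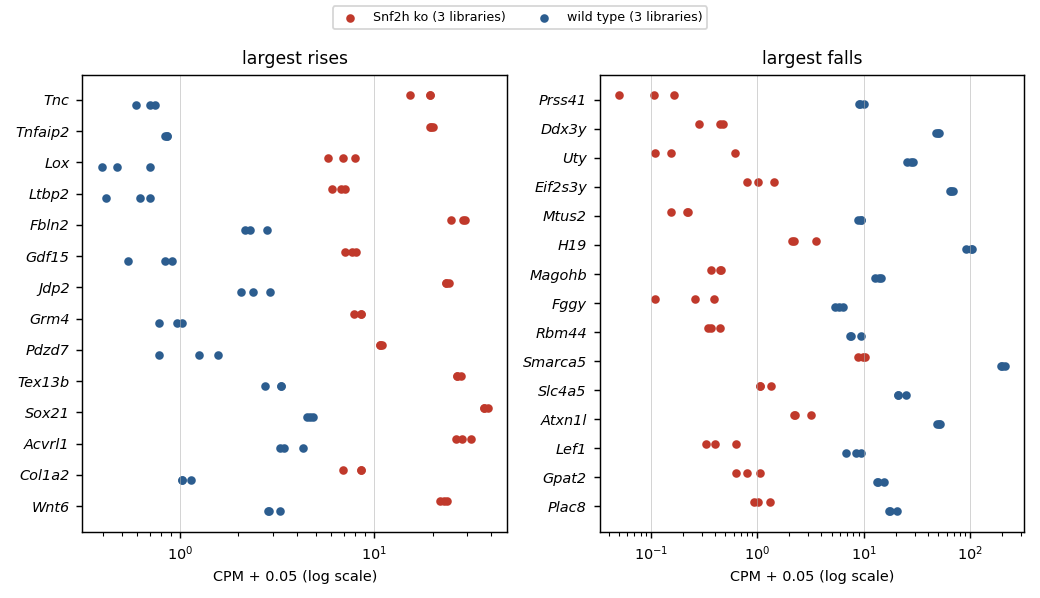
CPM with 0.05 added, on a log scale, of genes with the largest rises (left) and the largest falls (right) under the naming rule. Each point is 1 library, red for Snf2h ko and blue for wild type, and the rule admitted only genes whose ko and wild-type libraries do not overlap.

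Under the naming rule, the largest rises included genes of the extracellular matrix. Without its limits rises were larger, up to 7.67 on the log2 scale in the lowest of the 4 bins of mean CPM. Tnc (chromosome 4, 63959785 to 64047015), which encodes the matrix glycoprotein tenascin C, was at 15.3, 19.4 and 19.3 CPM in ko and 0.648, 0.545 and 0.689 CPM in wild type (4.82 ± 0.162, adjusted p = 7.28e-32). Tnfaip2, a gene induced by tumour necrosis factor, was at 19.5, 19.3 and 20.1 CPM in ko and 0.81, 0.787 and 0.803 CPM in wild type (4.61 ± 0.138, adjusted p = 1.38e-34). Fbln2, which encodes the matrix protein fibulin 2, was at 24.9, 28.7 and 29.5 CPM in ko and 2.75, 2.12 and 2.24 CPM in wild type (3.53 ± 0.108). The libraries of the genotypes lay several fold apart for each of them. Genes of signalling and transcription were also among the rises. They included the stress-induced cytokine gene Gdf15 (3.41), the AP-1 repressor gene Jdp2 (3.31), the neural transcription factor gene Sox21 (3.01), the BMP receptor gene Acvrl1 (2.98) and the ligand gene Wnt6 (2.95).

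Of 20 matrix glycoprotein genes tested, 15 were called higher in ko and 3 lower, with a median log2 fold change of 0.86, against 0.0065 for all genes. Thbs1 (thrombospondin 1) was at 78.6, 91.6 and 82.1 CPM in ko and 15.7, 15.1 and 16.5 CPM in wild type (2.41 ± 0.0593). Spp1 (osteopontin) was at 587, 610 and 598 CPM in ko and 295, 300.5 and 302 CPM in wild type (1.00 ± 0.0295). Several of these are also fibroblast genes. Of 20 fibroblast (feeder) markers tested, 13 were called higher and 2 lower, with a median of 1.26. Their called share was 75%, as over all genes. Their summed level was 349 to 366 CPM in ko and 160 to 164 CPM in wild type. The collagen genes that define fibroblasts were counted in both genotypes and were higher in ko. Col1a1 was at 17.4, 19.8 and 18.9 CPM in ko and 2.27, 3.69 and 3.73 CPM in wild type (2.54 ± 0.113), and Col1a2 at 6.90, 8.53 and 8.52 CPM against 0.972, 0.969 and 1.09 CPM (2.97 ± 0.169). Of the 7 markers that did not pass the filter on low counts, Lum and Tcf21 had no count in either group, Dcn had 2 counts in ko and 1 in wild type, and Fap had 1 in ko and 0 in wild type. Col6a3 had 56 counts in ko and 5 in wild type, Postn 41 and 4, and Twist2 12 and 0 in the same order. In the wild-type add-back, which was grown on gelatin, Col1a2 averaged 0.507 CPM, in the mutant add-back, which was started on feeders, 3.18 CPM, and in ko 7.98 CPM. Tnc had no count in the wild-type add-back and averaged 14.6 CPM in the mutant add-back. The part that remaining feeder cells have in these rises was not tested. In bulk RNA, more cells of a type and more RNA per cell cannot be told apart.

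Genes of the germline programme were among the strongest falls. The piRNA pathway makes and uses small RNAs that silence transposons in germ cells, and ES cells express part of it. Of its 17 tested genes of 21 listed, 15 were called lower in ko, 1 higher and 1 was not called, with a median of −1.89. Rnf17 (chromosome 14, 56402650 to 56525032), which encodes a tudor domain protein of germ cell granules, was at 17.1, 19.02 and 17.4 CPM in ko and 166, 160 and 164 CPM in wild type (−3.19 ± 0.0483, adjusted p = 2.57e-48). Tdrd12, another tudor domain gene, was at 1.41, 1.38 and 1.40 CPM in ko and 21.9, 24.3 and 26.4 CPM in wild type (−4.11 ± 0.123). The helicase gene Mov10l1 was at 5.2, 5.62 and 3.91 CPM in ko and 33.0, 30.6 and 30.9 CPM in wild type (−2.68 ± 0.0891). The groups did not overlap for any of these, as for 75.8% of all genes. The Piwi genes Piwil2 (−1.05) and Piwil4 (−2.14) also fell, while Mael rose (1.07 ± 0.0562) and the germ cell helicase gene Ddx4 fell by only 0.20.

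Meiotic and germ cell genes split, with 19 of 32 called lower and 6 higher (78.1% called) and a median of −0.38. Syce1, a component of the synaptonemal complex, was at 8.42, 8.11 and 7.29 CPM in ko and 49.99, 49.2 and 51.4 CPM in wild type (−2.66 ± 0.0694). Syce3, of the same complex, had 2 counts in ko and 64 in wild type, a ratio of wild type over ko of 32.8 with a counting interval of 8.71 to 276. Meioc, which is needed for meiotic prophase, went the other way at 75.6, 78.1 and 74.6 CPM in ko and 30.1, 28.6 and 29.6 CPM in wild type (1.37 ± 0.0488). All 10 tested genes of the 2-cell-like state, a rare transient state of ES cells that resembles the early embryo, were called lower, with a median of −1.90. Zscan4c was at 2.15, 1.75 and 2.10 CPM in ko and 7.40, 8.60 and 9.18 CPM in wild type (−2.07 ± 0.143). The Zscan4 copies are near-identical, so their counts may share reads and are not separate measurements. Genes at such low levels passed the filter through the group in which they were higher, so counts over them are descriptions of what was measurable.

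The machinery of DNA methylation fell in its de novo branch. Dnmt3a, a de novo methyltransferase gene, was at 90.4, 85.7 and 88.02 CPM in ko and 281, 269 and 270 CPM in wild type (−1.63 ± 0.0354). Dnmt3l, its catalytically inactive cofactor, was at 93.0, 94.1 and 98.6 CPM in ko and 336, 361 and 354 CPM in wild type (−1.88 ± 0.0354), and Dnmt3b fell by 0.85. The fall did not hold for Dnmt3b in the earlier set, where it was higher by 0.10 (edgeR quasi-likelihood test, adjusted p = 0.0199). Dnmt3a and Dnmt3l changed by −1.25 and −0.52 there. Mbd1, which binds methylated DNA, was at 9.04, 9.80 and 8.81 CPM in ko and 44.4, 47.5 and 47.2 CPM in wild type (−2.33 ± 0.0687). Over the 20 genes of the list, 12 were called lower and 6 higher, with a median of −0.22.

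Pluripotency genes did not move as a block. Among 18 naive pluripotency genes, 10 were called higher in ko and 7 lower, with a median of 0.18. Of the same genes 5 were called higher and 13 lower in the earlier set (median −0.22). Tcl1, a coactivator of the kinase Akt, was at 99.2, 102 and 108 CPM in ko and 37.0, 39.7 and 36.4 CPM in wild type (1.45 ± 0.0462). Klf4 was at 375, 375 and 370 CPM in ko and 212, 218 and 217 CPM in wild type (0.79 ± 0.0308), and Tbx3 rose by 0.83. Klf2, of the same family as Klf4, was at 63.5, 59.2 and 67.4 CPM in ko and 124, 124 and 127 CPM in wild type (−0.98 ± 0.0417). Klf2 and the transcription factor gene Gbx2 (−0.94) were thus lower in every ko library, whereas Klf4, Tbx3, Nanog (0.62), Esrrb (0.58) and Tfcp2l1 (0.58) were higher in every one. Of 12 core pluripotency genes, 9 were lower and 2 higher, with a median of −0.32. Dppa2, a chromatin factor of early development, was at 37.6, 37.9 and 38.3 CPM in ko and 101, 97.2 and 97.9 CPM in wild type (−1.38 ± 0.0445), while Pou5f1 was not called (0.04 ± 0.0274, adjusted p = 0.157).

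Genes of the formative and primed states, which ES cells enter as they leave naive pluripotency, were lower. Of 17 tested, 11 were called lower in ko and 1 higher (70.6% called, against 75.0% of all genes), with a median of −0.85. Otx2, a transcription factor of the formative state, was at 16.8, 16.5 and 15.5 CPM in ko and 41.3, 41.4 and 44.6 CPM in wild type (−1.38 ± 0.0622). Grhl2, an activator of epithelial genes, was at 11.1, 11.3 and 11.4 CPM in ko and 57.3, 53.8 and 52.7 CPM in wild type (−2.28 ± 0.0635). In the lists of signalling genes the called share was 70% for Nodal and BMP, 72.2% for FGF and ERK, 78.9% for Wnt and 85.7% for LIF and STAT3, near the 75.0% of all genes for the first 3. In the Nodal pathway the feedback inhibitor gene Lefty1 was at 7.63, 6.99 and 6.83 CPM in ko and 48.9, 46.2 and 48.4 CPM in wild type (−2.74 ± 0.0717), and Lefty2 fell by 1.12. The ligand gene Bmp7 was at 19.2, 17.6 and 19.1 CPM in ko and 3.51, 3.88 and 3.84 CPM in wild type (2.32 ± 0.101). Lefty1 and Lefty2 thus fell while Bmp7 rose, and the 20 genes of Nodal and BMP signalling split into 8 higher and 6 lower. In the FGF and ERK pathway 11 of 18 genes were lower and 2 higher, among them the feedback inhibitor Spry2 (−0.59 ± 0.0324) and the receptor gene Fgfr2 (−1.24 ± 0.0863). Among 19 Wnt pathway genes 10 were higher and 5 lower, with the secreted inhibitor Sfrp1 at 291, 300.5 and 308.5 CPM in ko and 130, 122.5 and 124 CPM in wild type (1.26 ± 0.0342) and the receptor gene Fzd7 lower (−0.91 ± 0.038). Of 14 genes of the LIF and STAT3 response 7 were higher and 5 lower, with rises of the kinase gene Jak1 (0.78) and Socs3 (0.43) and falls of Socs2 (−0.68) and Pim1 (−0.61).

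**Figure D3:**
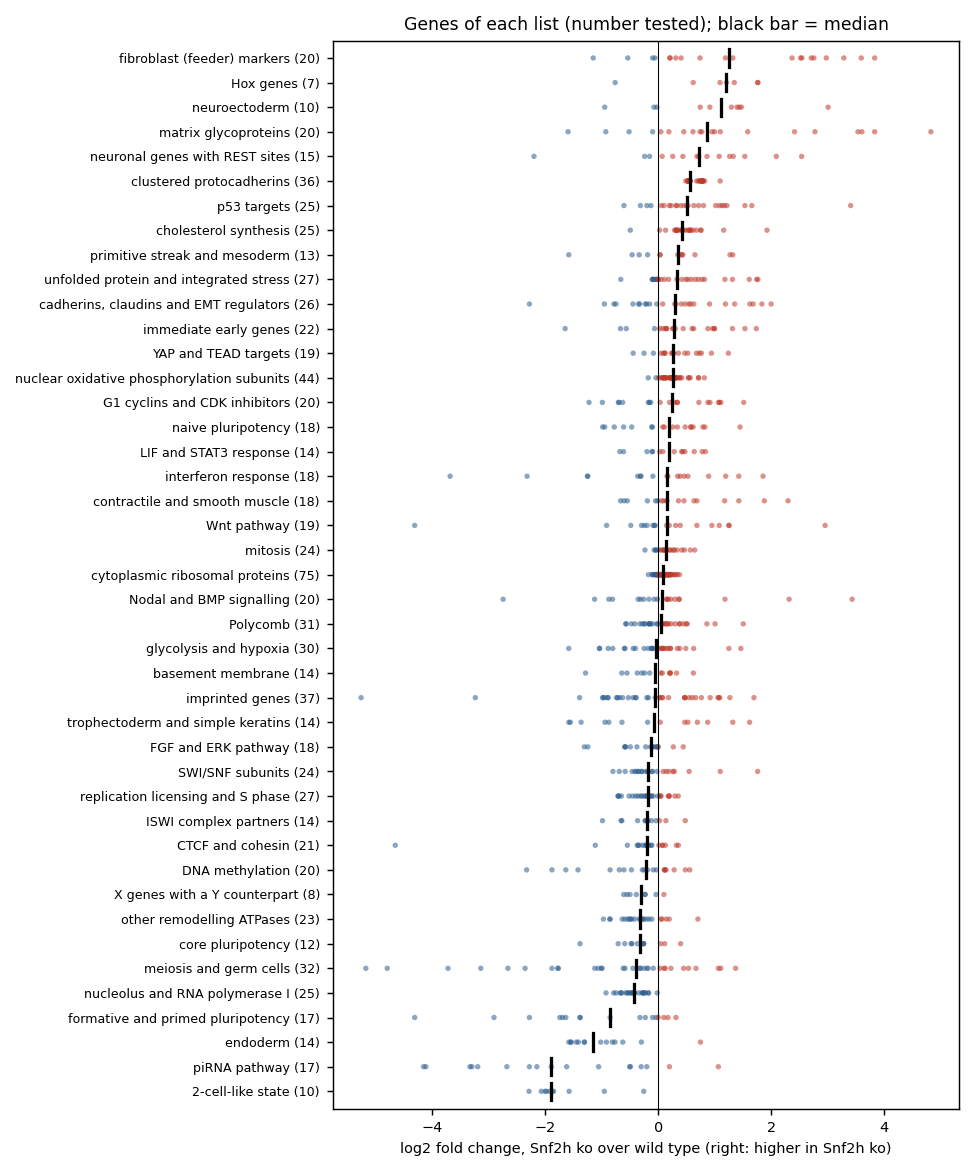
Log2 fold change, ko over wild type, of the genes of each list with at least 5 genes tested, red for values above 0 and blue for values below 0, with the median as a black bar and the number of genes tested in brackets. The 2-cell-like, piRNA, endoderm and formative lists lie lowest, with medians of −1.90, −1.89, −1.16 and −0.85, and the fibroblast, Hox and neuroectoderm lists highest, with medians of 1.26, 1.21 and 1.11. Only 7 of 39 Hox and 10 of 18 neuroectoderm genes listed passed the filter, which low genes could pass through the higher group alone.

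Lists of lineage genes differed in direction. Neuroectoderm genes were higher, with 7 of 10 tested (of 18 listed) called higher in ko and 1 lower and a median of 1.11. Sox21 was at 36.7, 36.6 and 38.6 CPM in ko and 4.48, 4.78 and 4.65 CPM in wild type, and Sox1, a marker of neural progenitors, at 12.3, 11.8 and 13.6 CPM against 3.73, 4.54 and 5.34 CPM (1.47 ± 0.11). Among neuronal genes with REST sites, which the repressor REST keeps low outside neurons, 12 of 15 were higher and 1 lower, with a median of 0.72. Of these 15, 7 were called higher and 5 lower in the earlier set (median −0.09). Scn3b, a sodium channel subunit gene, was at 17.01, 16.7 and 16.9 CPM in ko and 3.29, 2.60 and 2.75 CPM in wild type (2.54 ± 0.109), while Syt4 fell (−2.20 ± 0.239). Of 39 Hox genes listed only 7 passed the filter, and 5 of these were higher and 1 lower. Members at low level could pass the filter through the higher group alone, so counts and medians of these lists describe what was measurable.

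Endoderm genes moved in the opposite direction. Of 14 tested, 13 were called lower in ko and 1 higher, with a median of −1.16. Gata6, a transcription factor that specifies primitive endoderm, was at 15.0, 13.9 and 12.2 CPM in ko and 33.1, 33.8 and 34.8 CPM in wild type (−1.30 ± 0.0691). Dab2, an endocytic adaptor of that lineage, was at 88.1, 90.6 and 81.3 CPM in ko and 232.5, 237.5 and 240 CPM in wild type (−1.45 ± 0.0371). Pdgfra, its surface marker, was at 17.2, 18.7 and 16.8 CPM in ko and 42.4, 43.1 and 44.8 CPM in wild type (−1.30 ± 0.0606). Apoe, which many cell types express, was the gene that rose (0.75 ± 0.0301). The basement membrane genes that endoderm secretes in bulk split, with 7 of 14 lower, 6 higher and a median of −0.05, which turned positive when library totals alone were used. Laminin genes Lama1 (−0.64) and Lamb1 (−0.55) fell and Lamb2 rose (0.62).

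Growth and metabolism genes mostly moved by small amounts, in the same direction within most lists. Of 25 genes for the nucleolus and RNA polymerase I, which make ribosomal RNA, 24 were called lower in ko and 0 higher, with a median of −0.43. Ncl (nucleolin) was at 4172, 4239 and 4272 CPM in ko and 6284, 6041 and 5928 CPM in wild type (−0.53 ± 0.0248), the largest fall in CPM of any gene under the naming rule. The polymerase subunit genes Polr1a (−0.66) and Polr1b (−0.75) and the ribosome assembly gene Nolc1 (−0.79) fell too. Myc, which drives ribosome production, was at 56.3, 54.0 and 50.5 CPM in ko and 167.5, 168 and 167.5 CPM in wild type (−1.64 ± 0.0402). The ko libraries of Myc were all below the wild-type libraries, and those within each group lay close together. Genes for cholesterol synthesis were higher in 23 of 25 cases and lower in 1, with a median of 0.43. The member with the smallest adjusted p was the sterol oxidase gene Msmo1, at 187, 190 and 191 CPM in ko and 87.0, 83.7 and 83.4 CPM in wild type (1.16 ± 0.0362). Of 44 nuclear genes for oxidative phosphorylation subunits, 38 were higher and 1 lower, with a median of 0.26 and a largest rise of 0.82, that of Cox8a. Glycolysis and hypoxia genes split, 10 higher and 14 lower of 30. The phosphofructokinase genes moved apart, Pfkp at 412, 417 and 426 CPM in ko and 152, 151 and 153 CPM in wild type (1.46 ± 0.0318), and Pfkm at 38.4, 37.2 and 40.1 CPM against 78.6, 80.4 and 78.0 CPM (−1.04 ± 0.0464).

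The S phase and mitosis lists moved apart by small amounts. Of 27 genes for replication licensing and S phase, 18 were called lower in ko and 5 higher (85.2% called), with a median of −0.19. Ccne1 (−0.70) and Mcm10 (−0.71) were among those that fell. Of 24 mitosis genes, 18 were higher and 1 lower (79.2% called), with a median of 0.14, led by the spindle gene Nusap1 (0.65). None of either list changed 2-fold. In the earlier set 3 S phase genes were called higher and 20 lower (median −0.32). For mitosis these counts were 9 and 8 (median 0.03). Ccnd1, the D-type cyclin that drives G1, was at 111, 116 and 114 CPM in ko and 268.5, 269 and 258 CPM in wild type (−1.22 ± 0.0343), and its partner kinase Cdk6 fell by 0.99. Among 20 G1 cyclins and CDK inhibitors 10 were higher and 8 lower (90% called, against 75.0% of all genes). Cdkn1a (p21) was at 66.1, 66.1 and 68.7 CPM in ko and 30.3, 32.3 and 32.1 CPM in wild type (1.08 ± 0.0493), and Cdkn1b (p27) was higher by 0.88 ± 0.0501. Cdkn1a is also a p53 target. Of 25 p53 target genes, 19 were higher and 4 lower, with a median of 0.51, including Btg2 (1.53), Trp53inp1 (1.17) and Plk2 (1.22), beside Gdf15.

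Several lists of chromatin genes had more falls than rises, most of them under 2-fold. Of 23 other remodelling ATPases, 18 were called lower in ko and 3 higher, with a median of −0.32, among them Chd4 (−0.59), Ino80 (−0.85) and Hells (−0.54). Of 14 ISWI complex partners, 10 were lower and 2 higher. Baz1a, the Acf1 subunit that joins Snf2h in the ACF complex, was at 38.1, 37.2 and 34.5 CPM in ko and 71.0, 74.3 and 72.3 CPM in wild type (−0.98 ± 0.0481). SWI/SNF subunit genes were lower in 15 of 24 cases and higher in 7, with Arid1a at −0.69 and the alternative subunit gene Smarcd3 at 1.10. Genes for CTCF and cohesin were lower in 15 of 21 cases and higher in 4. Ctcf was at 194, 198 and 178 CPM in ko and 249, 231 and 238 CPM in wild type (−0.33 ± 0.0356). Its germ cell paralogue Ctcfl had 2 counts in ko and 58 in wild type, a ratio of wild type over ko of 29.7 with a counting interval of 7.86 to 251. Falls of this list were thus small apart from that of Ctcfl and of the deacetylase gene Hdac8 (−1.11).

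Imprinted genes, which are expressed from 1 parental allele, went both ways, with 18 of 37 lower and 14 higher. H19 (chromosome 7, 142575530 to 142578146), a noncoding RNA of the maternal allele, was at 2.09, 2.172 and 3.50 CPM in ko and 90.6, 101 and 104 CPM in wild type (−5.25 ± 0.0918, adjusted p = 6.45e-32). Its neighbour Igf2 was at 25.6, 26.2 and 26.2 CPM in ko and 24.3, 26.8 and 25.7 CPM in wild type and was not called (0.02 ± 0.062). H19 was thus nearly lost in all 3 later ko libraries while those of Igf2 overlapped with wild type. The earlier set kept more H19, with averages of 20.4 CPM in ko and 132 CPM in wild type. Its knockout effect differed between the sets by −2.56 on the log2 scale, later minus earlier (edgeR quasi-likelihood test, adjusted p = 6.8e-14). Grb10, an adaptor that restrains insulin signalling, was at 869, 899 and 866 CPM in ko and 282, 268 and 263 CPM in wild type (1.69 ± 0.0305). Snrpn and Snurf, which share a transcript and reads, were both lower by 0.98.

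Several Y chromosome genes were at or near 0 in the ko libraries. Of 6 Y genes tested, 4 were called and at least 2-fold lower in ko and 2 at least 2-fold higher. Ddx3y (chromosome Y, 1260715 to 1286628), an RNA helicase gene, was at 0.396, 0.424 and 0.233 CPM in ko and 49.4, 50.7 and 47.6 CPM in wild type. Eif2s3y, a translation initiation factor gene, was at 0.961, 0.742 and 1.40 CPM in ko and 68.6, 66.6 and 64.0 CPM in wild type, and the demethylase gene Uty at 0.565, 0.106 and 0.0583 CPM against 27.6, 25.7 and 28.7 CPM. Uba1y had 0 counts in ko and 89 in wild type, at least 30.4-fold lower with a floor of 3 counts over the group. These 4 genes were thus far lower in each ko library. Their log2 fold changes were −7.09 ± 0.131 for Ddx3y, −6.78 ± 0.181 for Uty and −6.01 ± 0.103 for Eif2s3y. The ko libraries held 19, 13 and 55 counts of these genes in the same order, so these SE understate counting error. The Y genes that rose were the RNA-binding protein gene Rbmy and the predicted gene Gm21708, named after their values were seen. Rbmy was at 1.13, 0.901 and 1.40 CPM in ko and 0.216, 0.303 and 0.344 CPM in wild type (1.96 ± 0.368, adjusted p = 4.76e-06), and Gm21708 was higher by 2.18 ± 0.458 (adjusted p = 3.37e-05). Rbmy is a multicopy gene, so its copies may share reads. Unlike Prss41 or Magohb, the falling genes stayed low in the wild-type add-back, where Ddx3y averaged 0.476 CPM, Uty 0.131 CPM and Eif2s3y 0.466 CPM, against 0.351, 0.243 and 1.03 CPM in ko. H19 was lower still in the wild-type add-back, at 0.217 CPM against 2.59 CPM in ko (edgeR quasi-likelihood test, adjusted p = 3.66e-07). Eif2s3y was called lower than ko there too (same test, adjusted p = 0.00699). None of H19, Ddx3y, Uty and Eif2s3y was called higher than ko in the wild-type add-back. The earlier ko libraries held more of the Y genes, with averages of 1.56 CPM for Ddx3y, 0.73 CPM for Uty and 5.45 CPM for Eif2s3y. The earlier wild-type libraries averaged 49.6, 37.1 and 74.0 CPM in the same order. For H19 and the falling Y genes, a state of the ko line and an effect of Snf2h loss cannot be told apart here.

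The X chromosome held a larger share of strong falls than any autosome. Of 490 X genes tested, 66 were called and at least 2-fold lower in ko (13.5%) and 25 at least 2-fold higher (5.10%), against 6.27% and 8.64% of all genes. On the autosomes the share of at least 2-fold falls was 3.32% to 8.05%, and the median log2 fold change −0.06 to 0.09, against −0.12 on the X. Among the X genes that fell, picked after their values were seen, the reproductive homeobox gene Rhox13 was at 0.396, 0.318 and 0.408 CPM in ko and 6.15, 6.06 and 6.89 CPM in wild type (−4.07 ± 0.219). Pdzd4 was at 24.5, 24.7 and 24.97 CPM in ko and 160, 163 and 165 CPM in wild type (−2.72 ± 0.0445). The X genes with a Y counterpart fell modestly, 6 of 8 being called lower, with Ddx3x at −0.61 and Eif2s3x at −0.39. Among the autosomes and the X, chromosome 11 had the largest share of at least 2-fold rises, 11.9% of 1172 genes.

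**Figure D4:**
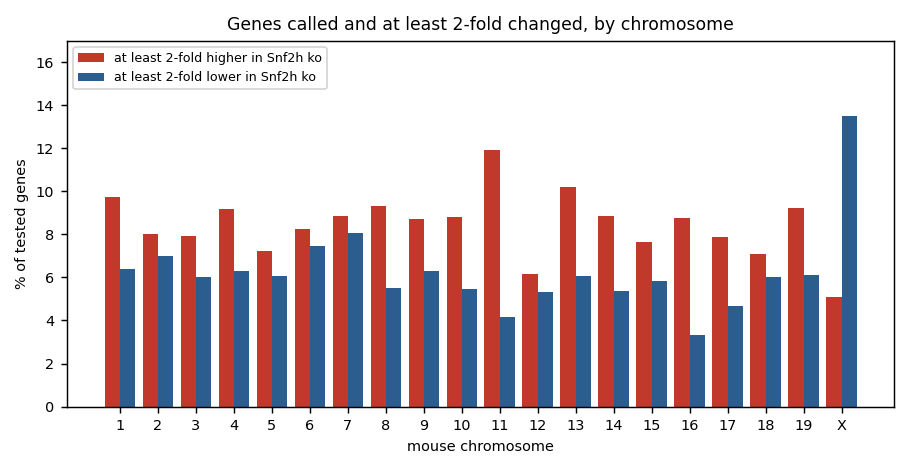
Share of the tested genes on each chromosome that were called and at least 2-fold higher (red) or lower (blue) in Snf2h ko than in wild type, as a percentage on the vertical axis. The X chromosome has 13.5% of its genes at least 2-fold lower, above the 3.32% to 8.05% of the autosomes.

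The effect was set beside that of the earlier libraries, replicates 1 and 2 of each genotype, with 22.9 to 25.3 M counts. In a fit of all 10 libraries the knockout effect differed between the later and the earlier set for 7231 of 14734 genes (49.1%, adjusted p under 0.05). The sets share no library. Of 2079 genes called and at least 2-fold changed in the later set, 1720 (82.7%) were called in the same direction in the earlier set. A further 91 were called there in the opposite direction and 268 were not called. Over all genes, 75.4% were called in the earlier set in either direction. The difference between sets was called for 1015 of the 2079 genes. The endoderm list parted the sets most, with a median of −1.16 in the later and 2.20 in the earlier set, and the difference was called for 13 of 14 genes. Gata4 averaged 61.7 CPM in ko and 108 CPM in wild type in the later set, and 191 CPM in ko and 35.9 CPM in wild type in the earlier set (log2 difference, later minus earlier, −3.22, adjusted p = 4.58e-37). The order of the genotypes was thus reversed, with ko lower and wild type higher in the later set than in the earlier one. Lama1, a basement membrane laminin gene, averaged 723 CPM in ko and 1128 CPM in wild type in the later set, and 3185 CPM in ko and 629 CPM in wild type in the earlier set. For this list the difference was called in the negative direction for 12 of 14 genes. In the 2-cell-like list the fall was smaller in the later set, with a median of −1.90 against −3.66, and the difference was called for 8 of 10 genes. The piRNA list was lower in both sets, at −1.89 in the later and −1.43 in the earlier set.

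**Figure D5:**
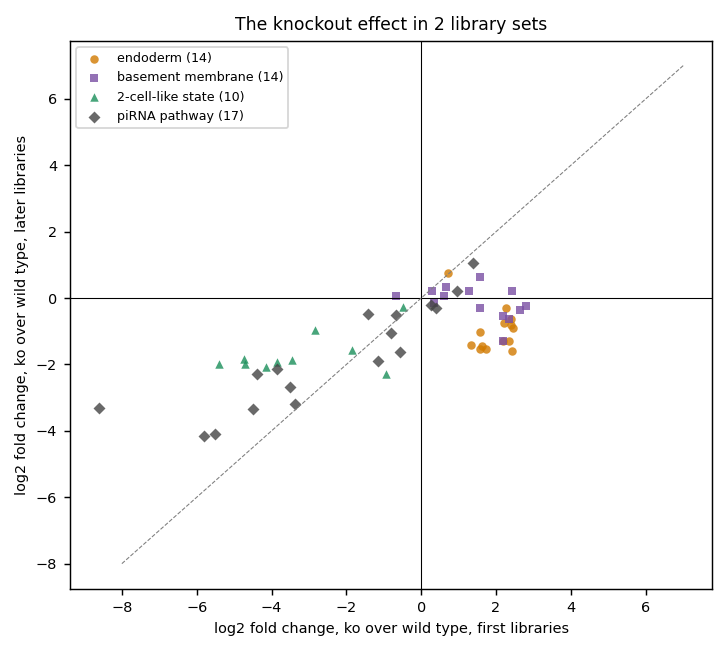
Log2 fold change, ko over wild type, in the earlier ("first") libraries on the horizontal and in the later libraries on the vertical axis, from the fit of 10 libraries; each point is 1 gene of the endoderm, basement membrane, 2-cell-like or piRNA list, and the dashed line marks equal values. Endoderm genes lie to the right of 0 and, except Apoe, below 0, whereas the 2-cell-like genes lie in the lower left.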

How the data were processed

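The authors deposited 1 table of raw read counts per gene, keyed by Entrez identifier, with 1 column per library and no pooled column. Per the submitters' processing notes, base calls were converted with bcl2fastq 2.17 and STAR and the mm10 (GRCm38) build were used. How reads were counted, with which annotation and whether by strand, is not given in the sources used here, so reads of overlapping or antisense genes may be mixed. Per the labels' protocols, RNA was purified on RNeasy columns and libraries were made with a stranded TruSeq mRNA kit.

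The 6 libraries were fitted alone with edgeR 4.0.16 in R 4.3.3. Of 24116 genes, 3581 had no count in any of the 18 libraries and 13946 passed filterByExpr with a count minimum of 10. Libraries were scaled by TMM, genes were tested with the two-sided quasi-likelihood F test in its robust form, and p-values were adjusted over all tested genes after Benjamini and Hochberg. Calls were made at an adjusted p under 0.05. SE were derived from the F statistic of each test and are too small for genes with few counts in a group. CPM is counts per M of the TMM-scaled library total. The common biological coefficient of variation was 0.0269. At these totals counting error was small above a few CPM, and intervals and floors cover counting error only. A group with 0 counts was given a floor of 3 counts. On simulated counts of 13780 genes, changes of 0.5, 1 and 2 on the log2 scale were given to 67, 67 and 66 genes. They were called in the right direction for 80.6%, 94% and 100% of these, and 6.15% of calls were false. Far more genes were called in the data. The false share depends on how many genes change, so it does not carry over to the calls made here.

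The earlier set was compared in a fit of 10 libraries with an interaction term, and the add-backs in a fit of 11 libraries. Coordinates and promoters are from RefSeq (GRCm38.p6), joined by identifier for 13931 of the tested genes. Promoters were listed for 10986 of the tested genes (78.8%), under the 80% that a comparison over gene sets needs, so a check of promoter content over the called genes is void and none is given.

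The libraries and the 44 gene lists were chosen with earlier results of these data known. Genes named by rule were Smarca5, Smarca1, the 15 largest rises and 15 largest falls in log2 fold change, and the 6 largest rises and falls in CPM, among genes that averaged 5 CPM or more in at least 1 group, did not overlap between groups and bore no provisional (predicted or clone) symbol. The 5 members of each list with the lowest adjusted p, and all members of lists of 10 or fewer, were named, and 6 genes in each direction for the difference between sets. A few genes that meet these conditions are not reported here. Other genes were named after their values were seen. Alternatives were other scalings and filters, DESeq2 1.42.0, limma voom (limma 3.58.1), a test against a fold of 1.5, the spread of all 18 libraries and leaving out each library. Wild type replicates 3 to 5 were used only for that spread.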

Additional observations from a re-analysis of the deposited data

Results flagged for a closer look

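The size of the knockout effect differed between the later and the earlier libraries for 7231 genes in a test of the difference itself (edgeR quasi-likelihood test, adjusted p under 0.05), of 14734 genes tested (49.1%). The 6 genes with the largest positive and the 6 with the largest negative difference (log2 fold change in the later set minus that in the earlier set) follow.

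The positive differences were mostly of genes that fell less in the later set. They were 3.59 for Fam183b, 3.43 for Zscan4d, 3.29 for Scn2b, 3.15 for Mobp, 2.90 for Zscan4b and 2.86 for Gjb1. Zscan4d, a gene of the 2-cell-like state, was at 1.75, 1.06 and 1.46 CPM in the later ko libraries and 4.64, 5.27 and 6.89 CPM in the later wild-type libraries. Scn2b, a sodium channel subunit gene, changed by −1.49 in the later set and −4.79 in the earlier set.

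The negative differences were of genes that rose in the earlier set and fell or were not called in the later set. They were −5.04 for Sprr2a1, −4.62 for Aqp8, −4.42 for Vnn1, −4.07 for Klb, −4.02 for Ihh and −4.00 for Cubn. Cubn, an endocytic receptor gene of visceral endoderm, was at 127, 111 and 109 CPM in the later ko libraries and 365, 348 and 325 CPM in the later wild-type libraries (−1.58 ± 0.0514), and its change in the earlier set was 2.42. Ihh, a hedgehog ligand gene, was at 3.34, 3.76 and 2.68 CPM in the later ko libraries and 3.62, 3.75 and 4.53 CPM in the later wild-type libraries, which overlap. The part of library set, depth or culture in these differences was not tested.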

How the results depend on the processing

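The count of genes called, 10453, ranged from 8951 (spread of all 18 libraries) to 11117 (no filter), with 9439 by DESeq2 and 10417 by limma voom, and Smarca5 stayed between −4.45 and −4.35. A test against a fold of 1.5 called 2839 genes. The count of genes called and at least 2-fold changed, 2079, was 1226 with a count minimum of 50, where fewer genes were tested (11770), and between 1972 and 2804 under the other alternatives. Leaving out each library in turn gave 10133 to 10223 called genes, 2206 to 2232 at least 2-fold changed genes and −4.45 to −4.35 for Smarca5. Scaling by library totals alone ended the calls of Smarca1 (−0.12, adjusted p = 0.102) and Msx2 (−0.28, adjusted p = 0.0797), and DESeq2 those of Smarca1, Msx2 and Vnn1 (adjusted p = 0.0595, 0.128 and 0.0931). The medians of the basement membrane and the trophectoderm list changed sign with a count minimum of 50, to 0.06 and 0.48, and the trophectoderm median without wild type replicate 6, to 0.07. Library totals alone turned the small negative medians of the basement membrane, glycolysis and imprinted lists positive. The formative median was −0.58 and the piRNA median −1.61 with that minimum. No paired analysis was possible because the ko and wild-type libraries share no replicate number. With 3 libraries against 3, an exact permutation test of 1 gene cannot go below 0.1.

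The main limits are that 1 knockout line was compared and that feeders and genotype cannot be told apart. The false share of these calls is also not known, since the 6.15% comes from simulated counts with far fewer changed genes.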

Other observations

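More stress genes were called higher than lower in ko. Of 27 genes of the unfolded protein and integrated stress responses, 16 were called higher and 3 lower, with a median of 0.33. The called share of this list, 70.4%, was below the 75.0% of all genes. Atf4, the transcription factor at the centre of the integrated stress response, was at 380.5, 393 and 395 CPM in ko and 250.2, 264.5 and 265 CPM in wild type (0.58 ± 0.0313), and Nupr1, a stress-induced chromatin protein gene, at 24.0, 28.2 and 25.1 CPM against 7.18, 7.81 and 7.80 CPM (1.77 ± 0.0834). The ko libraries were higher for both genes without overlap, and 75.8% of all genes had no overlap. Of 18 interferon response genes 9 were higher and 5 lower, with the apoptosis factor gene Xaf1 at 39.7, 41.0 and 37.2 CPM in ko and 10.4, 9.99 and 12.2 CPM in wild type (1.86 ± 0.0712) and the RNA sensor gene Ddx58 lower (−1.25 ± 0.0561). Immediate early genes were higher in 14 of 22 cases and lower in 3 (77.3% called).

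In lists of cell shape and adhesion genes the called share was 89.5% for YAP and TEAD targets, 77.8% for contractile and 76.9% for cadherin, claudin and EMT genes, against 75.0% of all genes. Of 19 YAP and TEAD targets 14 were higher and 3 lower, and of 18 contractile and smooth muscle genes 11 were higher and 3 lower. Acta2, smooth muscle actin, was at 21.2, 23.7 and 25.2 CPM in ko and 6.26, 6.60 and 6.20 CPM in wild type (1.88 ± 0.0881). Among 26 cadherin, claudin and EMT genes 12 were higher and 8 lower, with the cadherin gene Cdh3 at 104, 101 and 101 CPM in ko and 32.7, 29.9 and 32.9 CPM in wild type (1.68 ± 0.0467). Vim (vimentin), a fibroblast marker as well, was at 204.5, 204 and 211 CPM in ko and 88.4, 89.7 and 93.2 CPM in wild type (1.19 ± 0.036), and the part of feeder cells in it was not tested. Simple keratin genes Krt8 (0.88 ± 0.048) and Krt19 (1.62 ± 0.0959) rose, while the trophectoderm list split into 6 higher and 6 lower of 14. Of 13 primitive streak and mesoderm genes 3 were higher and 2 lower, Gata2 being the highest (1.32 ± 0.0665).

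Clustered protocadherin genes, which give neurons their surface identity, moved within a narrow range. Of 36 tested, 28 were called higher and 0 lower, and the log2 fold changes of all 36 lay between 0.49 and 1.10. Members of a cluster share constant exons, so their counts share reads and are not separate measurements. The earlier set differed, with 14 called higher and 21 lower and a median of −0.42. The difference between sets was called for 22 of the 36. Of 31 Polycomb genes 14 were higher and 12 lower, with Phc1 at −0.56 ± 0.0289. Of 75 cytoplasmic ribosomal protein genes 44 were higher and 4 lower (64% called, against 75.0% of all genes), none by more than 0.38. This direction did not hold in the earlier set, where 1 was called higher and 48 lower (median −0.13). The difference between sets was called for 65 of the 75, all in the positive direction.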
